A study of Arabidopsis thaliana with 6 samples.

Results

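The 4 genes described here are COR27 (AT5G42900), its relative AT4G33980, GI (AT1G22770) and the CCT-motif gene AT1G07050, out of 13286 genes of the Affymetrix array that have a named probe set and a match in the gene table. Each is read by 1 probe set that the array annotation pairs with that gene alone. They were listed because earlier results from the same arrays showed them low in miR172a apices, so that pattern is given below as a description and is not tested. Transcripts were measured in vegetative apices of 7-day-old Arabidopsis thaliana grown in short days, on 6 arrays in 3 groups of 2. The first group overexpressed the microRNA miR172a and the second the microRNA miR164b, both in Col-0, and the third consisted of Columbia plants carrying the empty plasmid pML_Bart (vector). The labels give no promoter for the overexpression, no number of transformed lines, no count of plants per sample and no time of day at harvest. They also do not say whether replicate arrays represent separate plants or pools, so every p-value below reflects variation between samples that could be technical.

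As background, the plant circadian clock runs on genes that are active at different times of day and repress each other. GI (GIGANTEA) encodes a large nuclear protein whose transcript peaks towards evening. It acts with the light-sensing F-box proteins FKF1 and ZTL, links the clock to flowering in long days and also takes part in cold tolerance. COR27 is a cold-induced gene under clock control. The CCT motif is a short stretch shared by CONSTANS, CONSTANS-LIKE and TOC1 proteins, many of which act in flowering time or in the clock. miR172 is known to lower the output of AP2-type floral repressors, largely by blocking their translation, and miR164 targets NAC genes that set organ boundaries.

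All values are scaled intensities on a linear scale. Log2 differences are differences on the log2(intensity + 16) scale from 1 model over all 6 arrays, with their standard errors. Median intensities lay between 85.3 and 92.2. Arrays of a group correlated at 0.991 to 0.994 across probe sets. The control probe set for 25S rRNA gave 355 and 3462 in miR172a, 443 and 529 in miR164b, and 4070 and 4093 in vector. Actin signal at the 3' end divided by that at the 5' end was 2.25 and 3.05 in miR172a, 1.96 and 2.11 in miR164b, and 3.0 and 2.94 in vector. Of 17 marker genes of the shoot meristem and organ primordia, 3 had a named probe set: CLV3, a signal peptide gene of the stem cells, LAS and JAG. CLV3 read 47.9 ± 4.2 in miR172a, 73.5 ± 12.6 in miR164b and 51.1 ± 12.2 in vector (SD, n = 2 each) and did not pass in any comparison. JAG, which promotes growth of lateral organs, was lower in miR172a than in vector, at 59.3 ± 10.9 against 107 ± 11.6 (adjusted p = 0.040 by limma). LAS, a regulator of axillary meristems, was higher in miR172a than in miR164b, at 64.9 ± 1.3 against 41.0 ± 4.7 (adjusted p = 0.034). None of 8 root markers had one, so root tissue was not checked here. Of 8 expanded-leaf markers 2 had one, and LHCB4.3, a light-harvesting gene, was higher in miR172a than in vector (194 ± 24.2 against 117 ± 1.1, adjusted p = 0.041 by limma). RCA, the Rubisco activase gene, read 4050 ± 122 in miR172a and 3878 ± 330 in vector. Of all probe sets 5.87% passed in miR172a against vector and 7.14% in miR172a against miR164b. The marker calls were not repeated under the alternative settings used further below, so how firm they are is not known. Whether the share of primordia or leaf tissue took part in the values below was not tested, and in whole apices fewer cells of a type cannot be told apart from less RNA per cell. The miR172 targets SNZ and SMZ read 223 ± 18.8 and 174 ± 4.8 in miR172a against 117 ± 13.1 and 160 ± 3.5 in vector. SNZ was higher in miR172a than in vector (log2 difference 0.85 ± 0.11, adjusted p = 0.017 by limma) and than in miR164b (1.10 ± 0.11, adjusted p = 0.0073). SMZ did not pass against vector (adjusted p = 0.506). Neither of these target transcripts was lower in miR172a, and no other target was read here. Because miR172 acts largely by blocking translation, transcript levels of targets cannot decide whether the label holds.

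COR27 read 55.7 and 63.5 in miR172a apices, 250.4 and 243.1 in miR164b apices, and 259.4 and 256.3 in vector apices. Both miR172a arrays lay far below the other 4, which were close together. The mean was 59.6 ± 5.5 in miR172a, 247 ± 5.2 in miR164b and 258 ± 2.2 in vector (SD, n = 2 each). The log2 difference was -1.86 ± 0.09 between miR172a and vector and -1.80 ± 0.09 between miR172a and miR164b. In rank within its array, COR27 exceeded 41.4% and 43.7% of probe sets in miR172a, against 75.6% and 75.3% in vector. It thus sat just under the middle of the miR172a arrays and well up in the brighter part of the vector arrays.

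AT4G33980, the relative of COR27, read 15.6 and 14.1 in miR172a apices, 124.3 and 122.1 in miR164b apices, and 104.3 and 104.1 in vector apices. The miR172a values were near the dim end of the array, above 20.8% and 21.4% of probe sets, against 53.1% and 53.4% in vector. The ratio of mean intensities was 0.143 for miR172a to vector, the smallest among the 4 genes, and 0.121 for miR172a to miR164b. On the log2 scale the differences were -1.96 ± 0.08 and -2.17 ± 0.08. Because the miR172a values lie below the added offset of 16, these log2 differences depend on it: that between miR172a and vector was -2.73 with an offset of 1 and -1.09 with 64.

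GI read 342.9 and 331.5 in miR172a apices, 463.0 and 502.4 in miR164b apices, and 490.2 and 502.4 in vector apices. It was the brightest of the 4 probe sets and had the smallest change. Its ratio of means was 0.679 for miR172a to vector, and the log2 differences were -0.54 ± 0.08 from vector and -0.50 ± 0.08 from miR164b. The miR172a arrays did not overlap the others, but GI stayed among the bright probe sets, above 81.5% and 80.9% of them in miR172a against 87.9% and 88.0% in vector. This transcript cycles, and the labels do not say whether the groups were harvested at the same time of day. The part of harvest time in these differences, and in those of the clock-controlled COR27, was not tested.

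AT1G07050, the CCT-motif gene, read 23.3 and 21.0 in miR172a apices, 143.6 and 132.1 in miR164b apices, and 63.5 and 74.5 in vector apices. Vector lay between the lines and no groups overlapped, as for AT4G33980, whose difference between miR164b and vector did not pass (given below). Here miR164b stood farther above vector. With 2 arrays a group, lack of overlap alone says little. The means were 22.2 ± 1.6 in miR172a, 138 ± 8.1 in miR164b and 69.0 ± 7.8 in vector. The log2 difference was -1.15 ± 0.10 between miR172a and vector and -2.01 ± 0.10 between miR172a and miR164b. With offsets of 1 and 64 that between miR172a and vector was -1.59 and -0.63. The probe set was dim in miR172a, above 27.6% and 27.7% of probe sets, against 43.6% and 47.0% in vector.

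**Figure D1:**
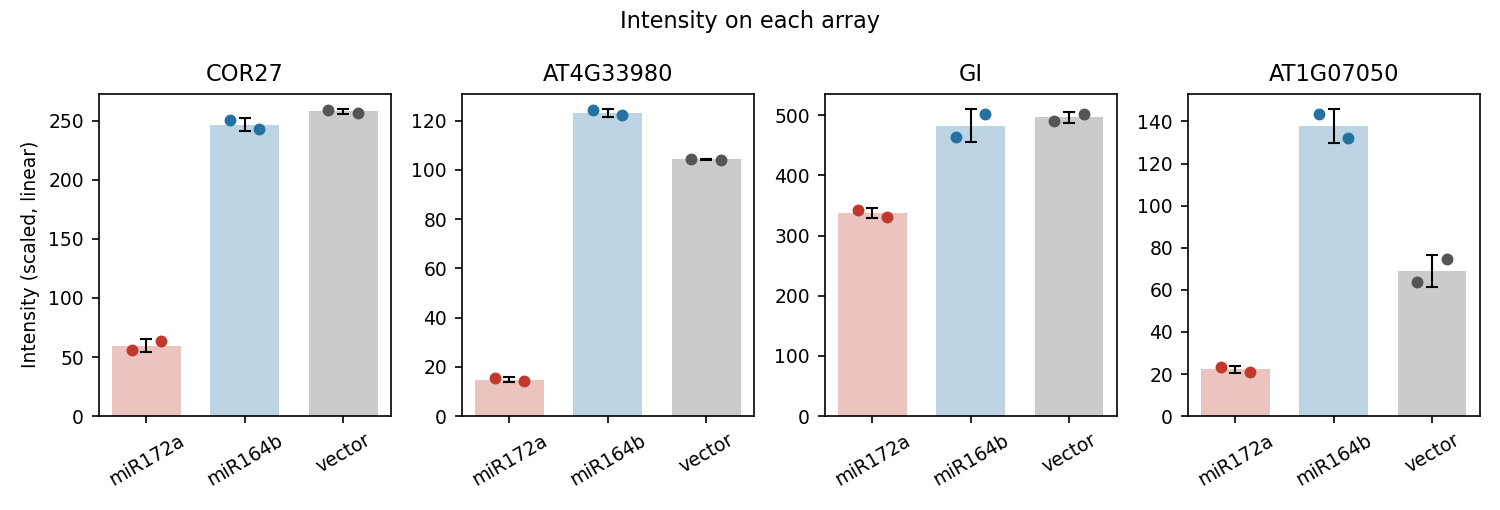
Scaled linear intensity of the 4 genes on each array, with bars at the group mean, whiskers of 1 SD (n = 2) and 1 point per array. Every gene was lowest on the 2 miR172a arrays, and AT1G07050 was at 143.6 and 132.1 in miR164b against 63.5 and 74.5 in vector.

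The miR172a arrays were the lowest for all 4 genes, which were listed for low values there. How many of all probe sets share this order of arrays was not counted, so the order alone says little. By a different measure, 2.64% of the 22746 tested probe sets passed as lower in miR172a against vector at an adjusted p of 0.05. Against miR164b 3.11% did. These shares are given for scale only, since the genes were listed for this difference. Among all tested probe sets, counted from the lowest log2 difference between miR172a and vector, AT4G33980, COR27 and AT1G07050 were among the lowest 78, and GI was number 712. Against miR164b the first 3 were among the lowest 35 and GI was number 798. The order of the 3 depends on the offset: with 64 COR27 had -1.38 and AT4G33980 -1.09 against vector, and AT1G07050 with -0.63 lay close to GI with -0.48. The ratio of the dimmest other array to the brighter miR172a array was 6.67 for AT4G33980, 3.83 for COR27, 2.73 for AT1G07050 and 1.35 for GI.

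Spread within groups was small beside these gaps, which is a description and no test, since the genes were listed for low miR172a values on these arrays. The largest gap between the 2 arrays of a group, on the log2 scale, was 0.15 for COR27, 0.07 for AT4G33980, 0.11 for GI and 0.19 for AT1G07050. The gap from the brighter miR172a array to the dimmest other array was 1.70, 1.93, 0.42 and 1.02 for the same genes. The miR172a arrays differ about as much in 25S rRNA as any arrays here, at 355 and 3462. On these arrays COR27 read 55.7 and 63.5, AT4G33980 15.6 and 14.1, GI 342.9 and 331.5, and AT1G07050 23.3 and 21.0. The part of RNA quality in these differences was not tested.

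The comparison of miR164b with vector was not used to list the genes, although it shares arrays with the comparisons that were. AT1G07050 was higher in miR164b than in vector, at 138 ± 8.1 against 69.0 ± 7.8. The log2 difference was 0.86 ± 0.10 (adjusted p = 0.026 by limma with Benjamini-Hochberg adjustment over all probe sets). In this comparison 1.79% of probe sets passed in either direction, 0.95% as higher and 0.84% as lower, and AT1G07050 was number 121 from the highest difference. The call was lost in 9 of 14 alternatives: an offset of 1, the replicate number as a block, only the 2 groups compared, and the removal of any one of the 6 arrays. These are not separate checks. Removing either miR172a array repeats the fit of only the 2 groups compared, and any removal leaves a group with 1 array and no spread. The log2 difference itself stayed between 0.60 and 0.99.

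The other 3 genes did not pass between miR164b and vector. AT4G33980 averaged 123 ± 1.6 in miR164b and 104 ± 0.14 in vector, and the arrays did not overlap (log2 difference 0.21 ± 0.08, 95% interval 0.02 to 0.41 unadjusted, adjusted p = 0.243). COR27 averaged 247 ± 5.2 and 258 ± 2.2 (log2 difference -0.06 ± 0.09, 95% interval -0.28 to 0.16, adjusted p = 0.769). Its arrays did not overlap either, by a margin smaller than the spread the model estimates. GI averaged 483 ± 27.9 and 496 ± 8.6 with overlapping arrays (log2 difference -0.04 ± 0.08, 95% interval -0.25 to 0.17, adjusted p = 0.848). For COR27, AT4G33980 and GI the order of miR164b and vector was thus not resolved at this threshold.

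**Figure D2:**
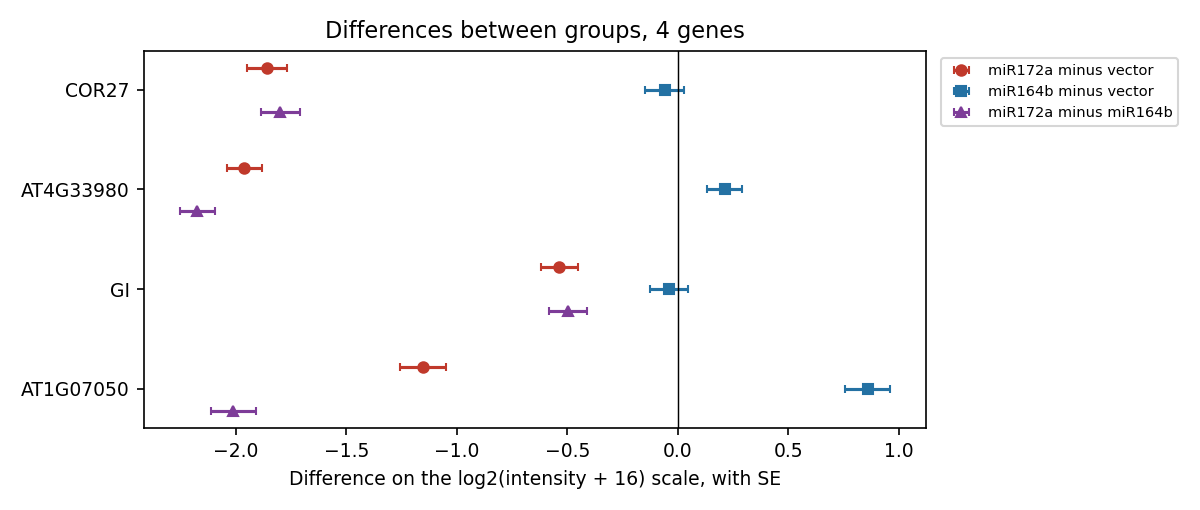
Differences between groups on the log2(intensity + 16) scale for the 4 genes, with bars of 1 standard error from the model over 6 arrays. Both comparisons of miR172a lie below 0 for every gene, and miR164b minus vector lies at 0.86 for AT1G07050 and between -0.06 and 0.21 for the others.

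Patterns over the 6 arrays were compared by the root mean square difference between log2(intensity + 16) profiles, each centred on its own mean, among 13285 other genes. This describes likeness over 3 groups of 2 arrays, not independent conditions. COR27 and AT4G33980 differed by 0.17, which made AT4G33980 the third nearest gene to COR27 and COR27 number 4 for AT4G33980. The genes nearest to COR27 were DFR (AT5G42800), which reduces dihydroflavonols in anthocyanin synthesis, at 0.13 and UF3GT (AT5G54060), an anthocyanin sugar transferase, at 0.14. DFR read 72.7 and 81.3 in miR172a, 329.8 and 313.9 in miR164b, and 284.0 and 258.6 in vector. UF3GT, nearest of all to AT4G33980 at 0.12, read 47.3 and 39.7 in miR172a, 207.0 and 210.8 in miR164b, and 177.5 and 196.3 in vector. AT2G23910 (0.14) and DFR (0.17) followed.

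AT1G07050 lay farther off, at 0.35 from AT4G33980 and 0.40 from COR27. Its nearest genes had the same 3 steps. AT2G33850, at 0.17, read 304.2 and 343.3 in miR172a, 1136.6 and 1013.9 in miR164b, and 635.3 and 813.0 in vector. AT1G06100 (0.22) and GLC (AT1G65450, 0.24) came next. GI was 0.62 to 0.74 from the other 3 genes, with its smaller change. Its own nearest genes were DPE1 (AT5G64860), a disproportionating enzyme of starch breakdown in plastids, AT3G25805 and AT1G30820, at 0.044 to 0.045. DPE1 read 301.7 and 311.8 in miR172a, 434.5 and 457.8 in miR164b, and 476.7 and 476.8 in vector.

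**Figure D3:**
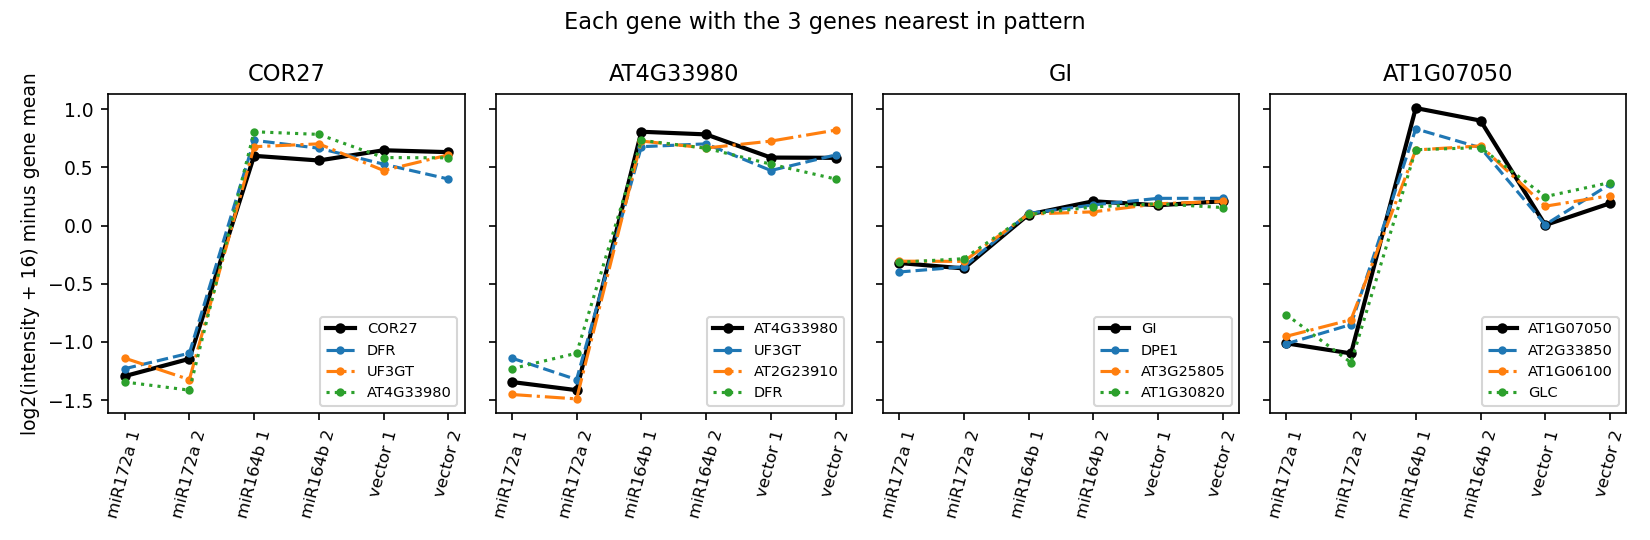
Log2(intensity + 16) minus each gene's mean over the 6 arrays, for the 4 genes (black) and the 3 genes nearest to each in pattern (coloured). COR27 steps up once after the miR172a arrays, and GI does so by a smaller amount. AT4G33980 steps up and is slightly lower again on the vector arrays, and AT1G07050 peaks on the miR164b arrays.

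The nearest genes along the chromosome with a named probe set, on each side of the 4 genes, were read next. They were picked by position, 1 to 3 protein-coding genes away, and none overlaps its partner in the gene table. Of these 8 neighbours 7 did not pass in any of the 3 comparisons. In miR172a against vector, where 5.87% of all probe sets passed in either direction, 1 of 8 did. It was AT4G33985, next to AT4G33980, which read 7.0 and 11.4 in miR172a, 44.6 and 29.2 in miR164b, and 35.1 and 37.2 in vector. It fell against vector by a log2 difference of -1.05 ± 0.17 (adjusted p = 0.028) and was lower than in miR164b by -1.06 ± 0.17 (adjusted p = 0.023). Its miR172a values lie below the offset, and its difference from vector no longer passed with an offset of 1, with the replicate block, or when a miR172a or vector array was left out (highest adjusted p = 0.129). Its difference from miR164b was lost in 8 of 13 alternatives, including an offset of 1 and the removal of any single array (highest adjusted p = 0.114). Near COR27, AT5G42880 and AT5G42910 were dim on all arrays, at 9.4 to 21.8 and 1.0 to 7.8. DFR, the gene most like COR27 in pattern, lies on the same chromosome with 11 protein-coding genes between them. The neighbours of GI, AT1G22750 and AT1G22790, had log2 differences between miR172a and vector of 0.00 and 0.04, while GI had -0.54.

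**Figure D4:**
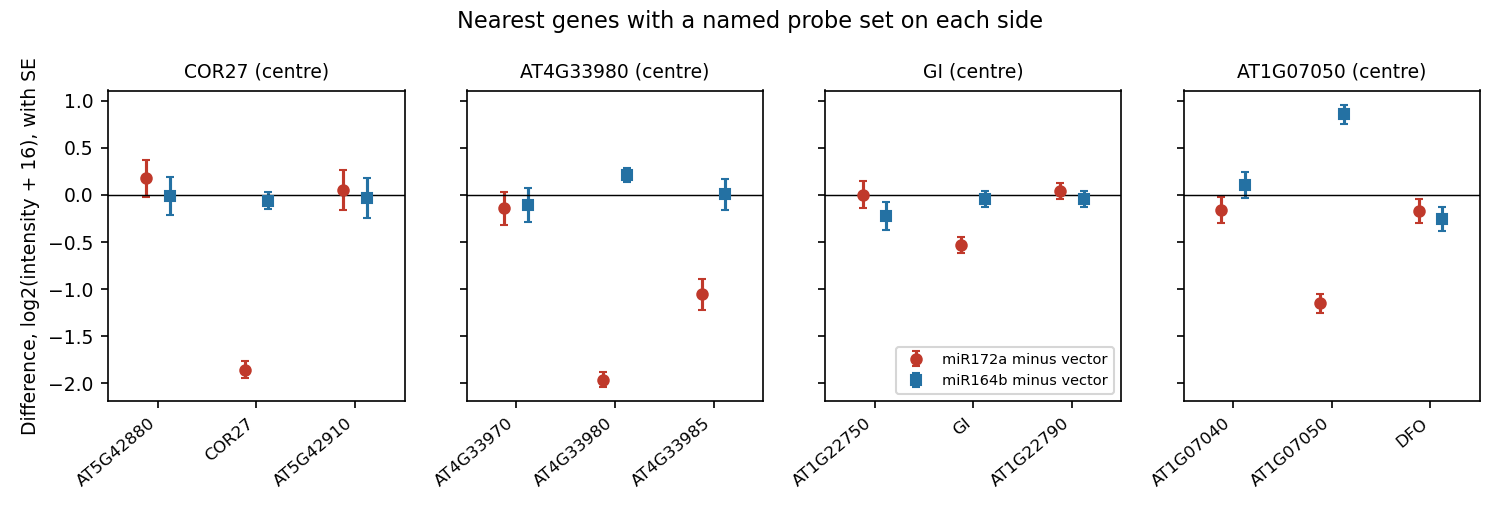
Log2(intensity + 16) differences from vector, with 1 standard error, for each of the 4 genes (centre of each panel) and the nearest gene with a named probe set on either side. AT4G33985 beside AT4G33980 is at -1.05 in miR172a, and the other 7 neighbours lie between -0.26 and 0.18 in both lines.

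Other genes of the clock, photoperiod, CCT motif, cold and light pathways were taken from 6 lists of 144 loci, of which 20 had a named probe set. Many core clock genes, CCA1, LHY, TOC1, ELF3, ELF4, PRR5, PRR7, PRR9, FKF1 and ZTL among them, have no named probe set here, and the same holds for CO, FT and the CBF genes, so they were not analysed. In miR172a against vector 1 of the 20 rose and 3 fell, beside 3.23% and 2.64% of all probe sets. Their median log2 difference was 0.10, against 0.00 over all probe sets. In miR164b against vector 0 rose and 1 fell, beside 0.95% and 0.84% of all probe sets (median -0.02, against -0.05), and between miR172a and miR164b 3 were higher in miR172a and 2 lower (median 0.14, against 0.06), where 7.14% of all probe sets passed.

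None of the 3 measured clock genes passed in any comparison. The largest differences were between the lines: those of AT5G52660, at 160 ± 13.4 in miR172a and 124 ± 37.1 in miR164b (log2 difference 0.36 ± 0.19, adjusted p = 0.333), and AT4G01280, at 132 ± 23.7 in miR172a and 88.6 ± 6.9 in miR164b (0.50 ± 0.13, adjusted p = 0.090, past the threshold in 1 of 14 alternatives). FIO1, an RNA methyltransferase gene known for setting the period of the clock, read 77.1 ± 0.78 in miR172a, 78.8 ± 4.3 in miR164b and 88.9 ± 3.7 in vector. Of the photoperiod list AT1G69570 and SPY, a regulator of gibberellin signalling that binds GI, were measured, and neither passed. AT1G69570 read 29.7 ± 4.7 in miR172a and 47.2 ± 4.2 in miR164b (adjusted p = 0.142), and SPY read 247 ± 33.0 in miR172a and 224 ± 4.5 in vector (adjusted p = 0.590).

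Among 8 measured genes of the CCT motif list, AT2G47890 fell in miR172a. It read 63.8 and 62.2 in miR172a, 136.6 and 152.3 in miR164b, and 119.4 and 178.4 in vector. The miR172a arrays lay below the other 4, and the vector arrays spread widely. The log2 difference was -1.04 ± 0.18 from vector (adjusted p = 0.034) and -1.02 ± 0.18 from miR164b (adjusted p = 0.031). The call against vector was lost in 7 of 14 alternatives, among them an offset of 1 and the removal of either miR172a array, either miR164b array or vector replicate 2 (highest adjusted p = 0.138), and that against miR164b with an offset of 1 or without any of the 4 arrays of the lines (highest adjusted p = 0.183). The other 7 passed in none of the 3 comparisons. AT2G47890 thus shared the direction of AT1G07050 between miR172a and vector, but read 144 ± 11.1 in miR164b and 149 ± 41.7 in vector, where AT1G07050 differed.

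Of 6 measured cold genes, 2 fell in miR172a against vector, where 2.64% of all probe sets did. LTI30, a dehydrin that protects cells against drying and cold, read 150.7 and 167.1 in miR172a, 191.8 and 189.2 in miR164b, and 475.8 and 456.7 in vector. It was low in both lines, unlike COR27 (log2 difference -1.46 ± 0.09, adjusted p = 0.0026 in miR172a, and -1.22 ± 0.09, adjusted p = 0.0062 in miR164b). COR47, another dehydrin, read 817.7 and 825.4 in miR172a, 1654.5 and 1607.0 in miR164b, and 1123.2 and 1188.5 in vector. It fell in miR172a against vector (log2 difference -0.48 ± 0.08, adjusted p = 0.032) and was lower there than in miR164b (-0.98 ± 0.08, adjusted p = 0.0047), while miR164b against vector missed the threshold (0.49 ± 0.08, adjusted p = 0.054). The groups of COR47 were ordered like those of AT1G07050, with vector in the middle.

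The remaining cold genes did not pass against vector. COR15A and COR15B are closely related genes for chloroplast proteins that stabilise membranes in the cold. COR15A read 338 ± 35.4 in miR172a, 462 ± 46.7 in miR164b and 462 ± 34.2 in vector. Like COR27 it was lowest on both miR172a arrays, but the difference was smaller and did not pass (log2 difference from vector -0.44 ± 0.12, adjusted p = 0.110, past the threshold in 2 of 14 alternatives). COR15B read 549 ± 40.1 in miR172a, 394 ± 5.2 in miR164b and 467 ± 25.5 in vector. It was higher in miR172a than in miR164b (0.46 ± 0.09, adjusted p = 0.045) and did not pass against vector (adjusted p = 0.244). ZAT10, a zinc-finger repressor induced by cold and other stresses, read 60.4 ± 4.0 in miR172a, 29.1 ± 2.3 in miR164b and 44.1 ± 4.5 in vector, and was higher in miR172a than in miR164b (0.76 ± 0.10, adjusted p = 0.015). SIZ1, a SUMO ligase gene that acts in cold signalling, read 291 ± 9.8 in miR172a, 254 ± 0.07 in miR164b and 255 ± 15.5 in vector and did not pass (adjusted p = 0.299 against vector). Because COR15A and COR15B are closely related, their probes may share signal.

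HYH, a bZIP factor and close relative of the light-signalling factor HY5, was the 1 measured gene of 32 on the light list. It read 189.6 and 196.7 in miR172a, 89.0 and 91.8 in miR164b, and 125.6 and 128.5 in vector. Its order of groups was the reverse of that of AT1G07050 and COR47. HYH rose in miR172a against vector (0.55 ± 0.08, adjusted p = 0.022) and was higher there than in miR164b (0.97 ± 0.08, adjusted p = 0.0044). Between miR164b and vector it missed the threshold (-0.43 ± 0.08, adjusted p = 0.070).

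**Figure D5:**
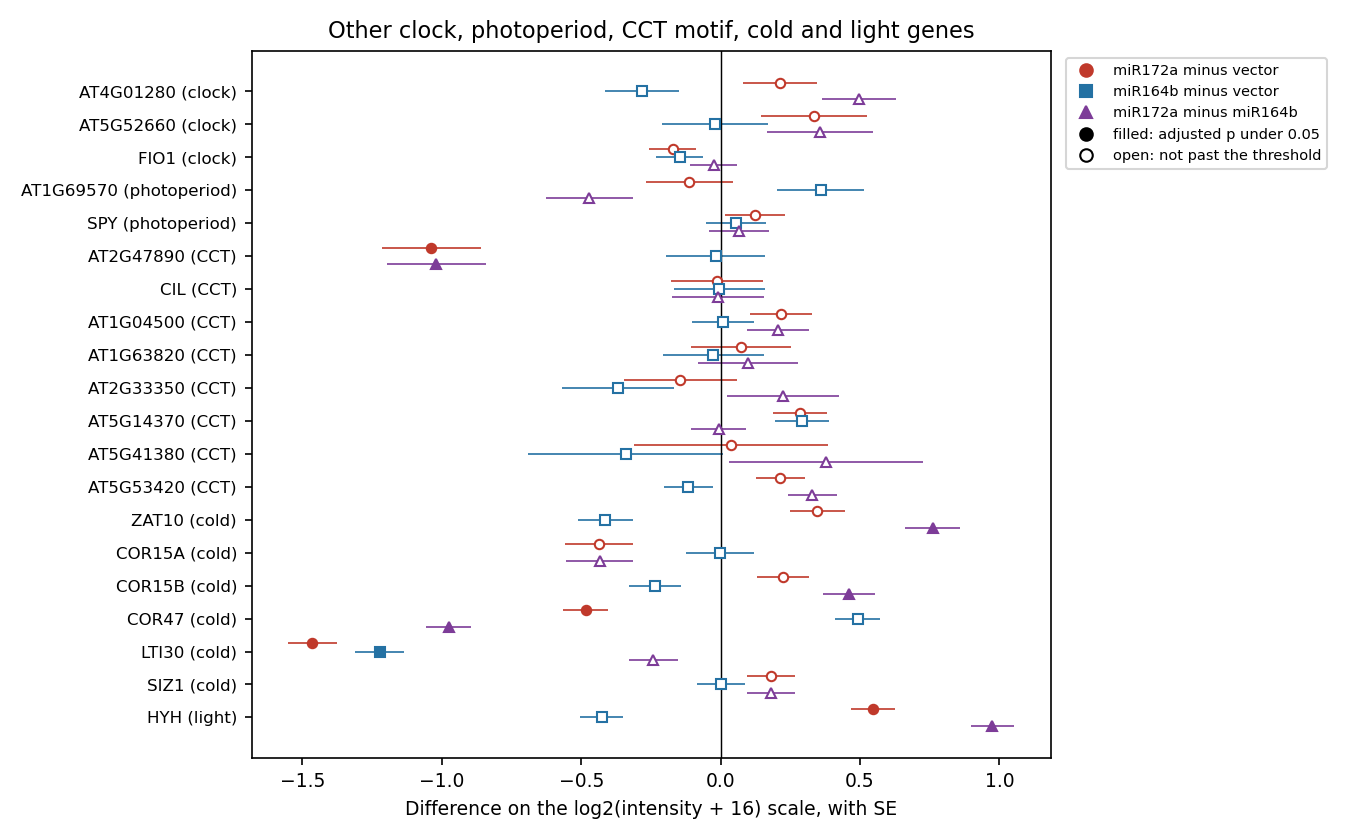
Log2(intensity + 16) differences with 1 standard error for the 20 measured genes of the clock, photoperiod, CCT motif, cold and light lists, in 3 comparisons, filled where the adjusted p is under 0.05. LTI30, AT2G47890 and COR47 lie to the left in miR172a minus vector and HYH to the right, and the 3 clock genes have open symbols throughout.

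Leaving out a single array ended most of these calls, but each such fit leaves a group with 1 array and no spread. Removing an array of the group not compared repeats the fit of only the 2 groups compared. The counts of alternatives in this report are therefore not counts of separate checks. LTI30 in miR172a against vector was called in all 14 alternatives (highest adjusted p = 0.033). In miR164b it was lost without either miR164b array or either vector array (highest adjusted p = 0.103). The differences of COR47 and HYH between miR172a and miR164b were lost without either miR164b array (highest adjusted p = 0.065 and 0.062). Against vector COR47 lost its call in 9 of 14 alternatives and HYH in 8, including an offset of 1 and the removal of any single array (highest adjusted p = 0.126 and 0.101). ZAT10 lost its call without any of the 4 arrays of the lines (highest adjusted p = 0.114), and COR15B lost its call in 10 of 14 alternatives, including median centring and the removal of any single array (highest adjusted p = 0.205).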

How the data were processed

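The authors deposited 1 linear intensity per probe set and array, for 22810 probe sets with 1 decimal. Neither summary software nor detection calls are stated per the labels. Each array averaged 200.0 once its lowest and highest 2% of values were left out. After 64 control probe sets were left out, 22746 were tested. Names came from the array annotation, updated through the TAIR10.1 gene table: 13513 probe sets had 1 gene (13436 matched that table), 503 had several and 8730 were not listed there.

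Values were taken as log2(intensity + 16) and fitted with limma 3.58.1 (lmFit, eBayes) in R 4.3.3, with 3 residual and 2.69 prior degrees of freedom. P-values are two-sided and adjusted by Benjamini-Hochberg over all probe sets, with a threshold of 0.05. The number of arrays limits the precision. The brightest probe set stood for a gene with several. Figures used Python 3.11.15 and matplotlib 3.10.9.

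The members and lists were chosen with earlier results of these data known. Named genes are the 4 members, listed genes past the threshold or, where a list had none, up to 2 with the largest difference, a fixed set of core clock and cold genes, and the 3 nearest patterns; FIO1, the markers, targets and neighbours were added. On simulated arrays 2.09% of changes of 0.5, 62.7% of changes of 1 and 92.4% of changes of 2 on the log2 scale were recovered for miR172a against vector, and 0.896%, 57.0% and 90.6% for miR164b against vector, over 22746 probe sets.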

Additional observations from a re-analysis of the deposited data

Results flagged for a closer look

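Effects against vector that differed between the lines are given here as values. AT4G33980 was lower in miR172a and higher in miR164b than on both vector arrays, with a log2 difference of -2.17 between the lines, and AT1G07050 likewise with -2.01. These differences depend on the offset. With offsets of 1 and 64 they were -2.97 and -1.25 for AT4G33980, and -2.585 and -1.23 for AT1G07050. Both genes were listed for being low in miR172a, and the difference between the lines was not tested. Between miR164b and vector AT4G33980 did not pass (adjusted p = 0.243 by limma), while AT1G07050 did (adjusted p = 0.026).

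For listed genes the difference between the lines was tested in the same model. It passed for AT2G47890 (-1.02), COR47 (-0.98), ZAT10 (0.76), COR15B (0.46) and HYH (0.97), all as miR172a minus miR164b on the log2(intensity + 16) scale. It also passed for SRC2 (0.49, adjusted p = 0.034 by limma). The calls of SRC2 and COR15B were each lost in 10 of 14 alternatives, including an offset of 1, median centring and the removal of any single array. That of AT2G47890 was lost with an offset of 1. All of these calls were lost when certain single arrays were left out, which leaves a group with 1 array and no spread.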

How the results depend on the processing

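Over 14 alternatives the log2 difference between miR172a and vector kept its sign for all 4 genes and ranged from -2.10 to -1.38 for COR27, -2.73 to -1.09 for AT4G33980, -0.57 to -0.48 for GI and -1.59 to -0.63 for AT1G07050, with the ends set by the offset except for the lower end of GI. Without single arrays it ranged from -1.93 to -1.78, -2.00 to -1.93, -0.56 to -0.51 and -1.25 to -1.06. The difference from miR164b also kept its sign for all 4. Both comparisons were used to list the genes and every alternative reuses these arrays, so the kept signs are a description and no test.

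The probe sets called numbered 1336 in miR172a against vector, 407 in miR164b against vector and 1623 in miR172a against miR164b. In the same order they were 406, 103 and 683 with an offset of 1, and 2241, 916 and 2707 with 64. They were 2419, 1148 and 2978 without the 40% dimmest probe sets, 2263, 1068 and 2724 with a trend in eBayes, and 359, 144 and 1018 with only the 2 groups compared. Without single arrays they ranged from 111 to 359, 9 to 144 and 102 to 1018. With median centring the third comparison had 652 higher and 991 lower, against 915 and 708.

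Listed genes called were 4, 1 and 5 of 20. They were 1, 1 and 3 with an offset of 1. In miR172a against vector 1 was called with only the 2 groups compared. In miR164b against vector 3 were called with an offset of 64, without the dimmest 40% and with a trend, and 2 with median centring. Without single arrays the ranges were 1 to 2, 0 to 1 and 0 to 4. The cause of these shifts was not tested.

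The letters ending the sample titles could pair arrays. Deviations of arrays with the same letter correlated at 0.08, 0.10 and -0.01 between groups, so the letter was not taken as a pairing. The replicate block gave 795, 186 and 1104 probe sets and 3, 1 and 4 listed genes, and the AT1G07050 call in miR164b was lost with it (adjusted p = 0.063).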

Other observations

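A search of the gene table's names for cold, circadian, phytochrome or flowering terms, made after the arrays had been seen, added 4 measured genes. SRC2, named there for a cold-regulated soybean gene, read 497.4 and 526.3 in miR172a, 361.0 and 357.4 in miR164b, and 340.8 and 376.2 in vector, and it rose in miR172a against vector (log2 difference 0.50 ± 0.09, adjusted p = 0.038). It lost that call in 10 of 14 alternatives, including median centring and the removal of any single array (highest adjusted p = 0.143). XCT, named XAP5 CIRCADIAN TIMEKEEPER, read 257.9 and 190.0 in miR172a, 256.7 and 237.5 in miR164b, and 172.0 and 206.2 in vector, and did not pass. PHL and DNF, both named for flowering, did not pass in any of the 3 comparisons.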
